A study of Homo sapiens with 52 samples.

Results

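The messenger RNAs described here encode the elongation factors EEF1A1, EEF2, EEF1G and EEF1B2 and 4 other proteins of the translation machinery or its surroundings, PABPC1, TPT1, RACK1 and NPM1, all known as TOP mRNAs. They were chosen by transcript identifier and by no rule on measured values, though with earlier results of these data known. They are 9 of the 226882 transcripts in the deposited table, for 8 genes. The identifiers are ENST00000309268 and ENST00000316292 for EEF1A1, ENST00000309311 for EEF2, ENST00000329251 for EEF1G, ENST00000392222 for EEF1B2, ENST00000318607 for PABPC1, ENST00000530705 for TPT1, ENST00000512805 for RACK1 and ENST00000296930 for NPM1. The 2 EEF1A1 transcripts differed by at most 0.589% of their counts in any of the 42 libraries and got the same call in every comparison, so ENST00000309268 stands for EEF1A1 below and counts are given over 8 genes.

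The libraries came from HEK293T cells, a human embryonic kidney line carrying the SV40 large T antigen, and measured 3 factors that act on small ribosomal subunits. RNA-seq and Ribo-seq were made from MCTS1 knockout (KO) lines #1 and #2 and wild type (WT) cells, and from cells given siDENR #1, siDENR #2 or siControl, with 2 libraries of each kind per group. TCP-seq was made from eIF2D KO lines #1 and #2 and MCTS1 KO lines #1 and #2, with 2 libraries each, and from WT cells, with 4 libraries. In 40S Sel-TCP-seq, small subunit complexes were selected through V5-tagged eIF2D, MCTS1 or DENR, with 2 libraries each. WT TCP-seq libraries 1 and 2 carry library names that run on into those of the eIF2D KO libraries and WT libraries 3 and 4 into those of the MCTS1 KO libraries, and each KO was set against the WT libraries of its own run. Each numbered KO is 1 line, and the labels do not say how the lines were derived, how strong either siRNA was, or whether replicates were separate cultures. The p-values therefore reflect only how far these libraries spread, and that spread may be technical. The level of the targeted genes and of cell type markers was not analysed here, because no table paired the other transcripts with gene names.

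A TOP mRNA begins with a C at its cap, followed by an unbroken run of pyrimidines, the 5′ terminal oligopyrimidine tract. When mTORC1 signalling is low, the protein LARP1 binds the cap and this tract and holds the mRNA out of translation, so ribosomal proteins and elongation factors are made in step with growth. EEF1A1 brings aminoacyl-tRNA to the ribosome, EEF1B2 and EEF1G are subunits of the complex that recharges it with GTP, and EEF2 moves the ribosome along by one codon. DENR and MCTS1 form a heterodimer, and eIF2D is a single protein of similar build. They are known for removing tRNA and mRNA from small subunits after termination and for reinitiation.

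The starts of these genes are shown because the tract at the cap defines the class. Each line gives 30 bases of the transcribed strand from RefSeq (GRCh38.p14), 10 before the annotated start and 20 from it, with capitals for a tract that begins with C at the start and holds at least 4 further C or T. The coordinates, in the same order, are chr6:73521013-73521042 (minus strand), chr19:3985444-3985473 (minus), chr11:62573872-62573901 (minus), chr2:206159885-206159914 (plus), chr13:45341164-45341193 (minus), chr5:181243887-181243916 (minus) and chr5:171387839-171387868 (plus).
EEF1A1: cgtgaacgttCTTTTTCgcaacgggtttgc
EEF2: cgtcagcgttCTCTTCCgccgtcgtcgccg
EEF1G: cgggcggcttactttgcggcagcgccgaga
EEF1B2: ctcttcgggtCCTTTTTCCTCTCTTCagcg
TPT1: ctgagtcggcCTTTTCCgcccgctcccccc
RACK1: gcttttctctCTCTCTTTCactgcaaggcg
NPM1: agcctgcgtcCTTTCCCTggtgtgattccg

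In these windows 6 genes had the tract at the annotated start, from 7 bases in EEF1A1, EEF2 and TPT1 to 16 bases in EEF1B2. Among all 35116 promoters of the table, 1429 (4.07%) had one at the start, and 61.38% had one that began within 30 bases on either side of it. The EEF1G start is annotated at an A, with a tract of 18 bases upstream of it within the 30 searched. EEF1B2 and NPM1 each have a further annotated start, at an A and a G, without the tract. Of the 8 genes, 7 were in the promoter table, and PABPC1 is only named.

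The values are counts per transcript as deposited by the authors. Library totals ran from 76967099 to 301214608 counts in RNA-seq, 16370112 to 193940882 in Ribo-seq, 1609303 to 5053637 in TCP-seq and 356019 to 2582917 in Sel-TCP-seq. A level is given as CPM, the count scaled to a library total of 1000000. The 8 mRNAs together took 0.319% to 0.448% of the counts in RNA-seq libraries, 0.257% to 0.291% in Ribo-seq, 0.154% to 0.202% in TCP-seq and 0.139% to 0.225% in Sel-TCP-seq. All 8 passed the filter on low counts in every comparison, with 6830 or more counts in each RNA-seq library and 1201 or more in each Ribo-seq library, but as few as 79 in a TCP-seq and 13 in a Sel-TCP-seq library. RefSeq lists 50 named pseudogenes each for EEF1A1 and NPM1, 14 for TPT1, 13 for PABPC1, 8 each for EEF1G and EEF1B2, 3 for RACK1 and 0 for EEF2. The sources used here do not give the rule for reads that match several places, so pseudogenes leave the levels of all but EEF2 uncertain. The rule for overlapping transcripts of a gene is not given either. Both EEF1A1 transcripts had nearly the same counts, and 1 further row of the table repeated those of ENST00000309268 exactly. A read may thus be counted for several transcripts, so all totals, CPM and shares, those of EEF2 included, may hold reads more than once.

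In WT cells the 8 mRNAs differed in ribosome footprints for their RNA, with 3 above a CPM ratio of 1 and 5 below it. RACK1, a scaffold protein on the small subunit, had 519 and 504 CPM in Ribo-seq and 331 and 322 CPM in RNA-seq, a ratio of 1.57 between the means. EEF2 had 515 and 564 CPM in Ribo-seq and 432 and 410.1 CPM in RNA-seq, a ratio of 1.28. EEF1B2 had a ratio of 1.09, with 101 CPM in both Ribo-seq libraries and 92.0 and 92.5 CPM in RNA-seq. Footprint CPM was above RNA CPM in these 3 mRNAs. A ratio of 1 means equal CPM and no more, since each library was scaled to its own total. EEF1A1 had 723 and 753 CPM in Ribo-seq and 1506 and 1501 CPM in RNA-seq, a ratio of 0.491. PABPC1, which coats poly(A) tails and binds the cap complex, had 102 and 101 CPM in Ribo-seq and 214 and 217 CPM in RNA-seq, a ratio of 0.470. For EEF1G the ratio was 0.523, for TPT1, a small conserved protein controlled at translation, 0.597, and for NPM1, a nucleolar chaperone of ribosome assembly, 0.654. Footprint CPM was below RNA CPM in these 5, and no WT library crossed over in any of the 8. Across 71077 transcripts with at least 1 CPM in both assays the median ratio was 0.858. RACK1 stood at percentile 89.0, EEF2 at 78.3 and EEF1B2 at 67.7, while NPM1 stood at 32.7, TPT1 at 27.7, EEF1G at 21.4, EEF1A1 at 18.7 and PABPC1 at 17.0. In siControl cells the order was the same but for EEF1A1 and EEF1G, which changed places. There the ratios ran between 1.45 for RACK1 and 0.383 for PABPC1, beside a median of 0.891. EEF2 was at 1.04 (percentile 60.7) and EEF1B2 at 0.961 (percentile 55.2), so EEF1B2 footprint CPM was below its RNA CPM and the WT split at 1 did not hold. These ratios relate the assays within an mRNA and are no measure of protein output, since a footprint library and an RNA library scale differently with transcript length and coding share.

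TCP-seq and Sel-TCP-seq gave another order. The labels name no ribosomal fraction for TCP-seq, so its counts are not read as small subunits alone. EEF1G had 111, 121, 102 and 94.2 CPM in the 4 WT TCP-seq libraries and a mean of 439.9 CPM in RNA-seq. Its TCP-seq to RNA-seq ratio of 0.243 was at percentile 3.3 of 71769 transcripts, and that of EEF1A1, 0.338, at percentile 8.1. PABPC1, lowest of the 8 in footprints per RNA, was highest here, with 196, 201, 214 and 220.0 CPM in WT TCP-seq, a ratio to RNA-seq of 0.964 at percentile 64.1. Set against Ribo-seq, PABPC1 TCP-seq stood at a ratio of 2.05 (percentile 83.5 of 64995 transcripts) and RACK1 at 0.423 (percentile 15.2). In Sel-TCP-seq, averaged over the 3 selections, PABPC1 was at percentile 11.1 of its ratio to RNA-seq and NPM1 at 66.1.

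**Figure D1:**
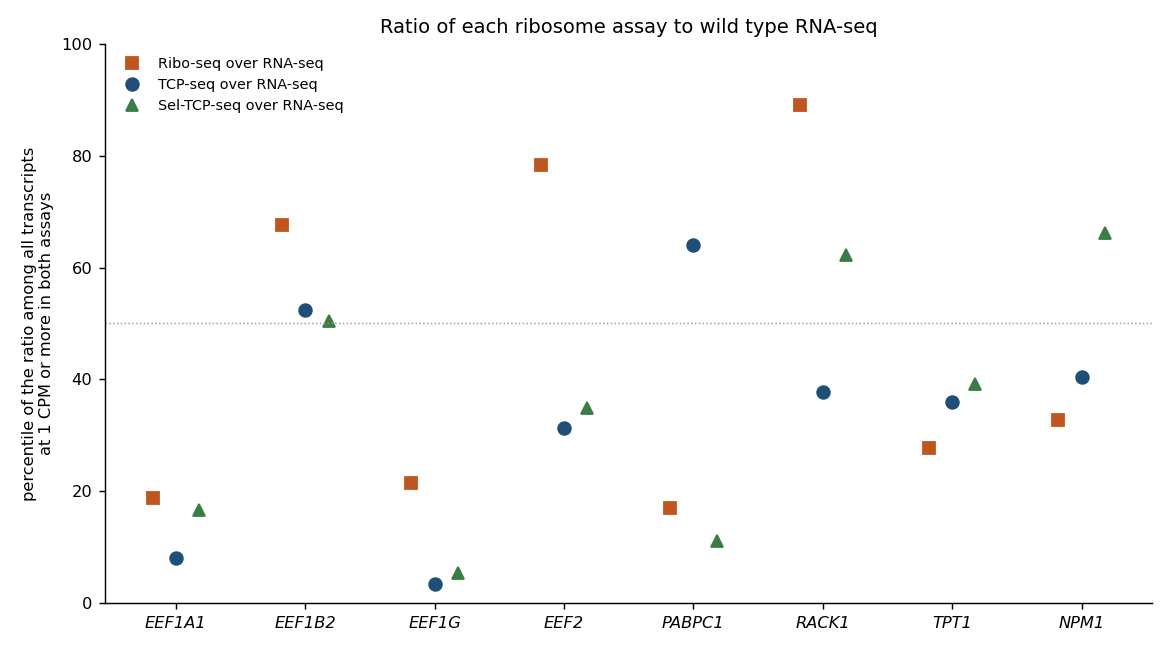
Percentile of each mRNA's ratio of Ribo-seq (squares), WT TCP-seq (circles) or Sel-TCP-seq (triangles) CPM to WT RNA-seq CPM, among all transcripts with at least 1 CPM in both assays, with a dotted line at the median. RACK1, EEF2 and EEF1B2 lie above the line in Ribo-seq, and PABPC1 lies at 17.0 in Ribo-seq, 64.1 in TCP-seq and 11.1 in Sel-TCP-seq.

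MCTS1 KO was set against WT to ask what loss of the dimer's MCTS1 does to mRNA level and translation. In RNA-seq, averaged over both lines, EEF1A1 and EEF2 rose and NPM1 and EEF1B2 fell, by small amounts. That is 4 of 8 genes at an adjusted p under 0.05 (edgeR quasi-likelihood test, Benjamini-Hochberg over all tested transcripts), where 24.9% of 131951 transcripts were called, 11.4% higher and 13.5% lower. The median log2 change of the 8 was -0.02, beside -0.01 over all transcripts. The lines differed from each other.

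EEF1A1 RNA had 1530.1 and 1574 CPM in line #1, 2176 and 2234 CPM in line #2, and 1506 and 1501 CPM in WT. The line #2 libraries stood far above the other 4, and the line #1 libraries just above WT. The log2 change was 0.30 ± 0.03 over both lines (SE, adjusted p = 2.67e-13), 0.60 ± 0.03 in line #2 (adjusted p = 1.73e-23) and 0.01 ± 0.03 in line #1 (adjusted p = 0.865). EEF1B2 went the opposite way in the lines, with 62.2 and 62.9 CPM in line #1, 102 and 104 CPM in line #2, and 92.0 and 92.5 CPM in WT. It fell by 0.60 in line #1 (SE 0.04, adjusted p = 2.98e-22) and rose by 0.20 in line #2 (SE 0.04, adjusted p = 2.76e-05). Its partner subunit EEF1G had 367 and 374 CPM in line #1, 468 and 476 CPM in line #2, and 441 and 439 CPM in WT, a log2 change of -0.29 ± 0.03 in line #1 (adjusted p = 1.02e-10) and 0.15 ± 0.03 in line #2 (adjusted p = 0.00105). Both mRNAs, and RACK1 as given below, were below WT in each line #1 library and above WT in each line #2 library. The share of all transcripts that separate in this way was not counted.

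EEF2 RNA had 505 and 499 CPM in line #1, 439 and 435 CPM in line #2, and 432 and 410.1 CPM in WT. Its log2 change was 0.21 ± 0.03 in line #1 (adjusted p = 3.84e-07) and 0.10 ± 0.03 in line #2 (adjusted p = 0.0487), where DESeq2 did not call it (adjusted p = 0.0961). NPM1 fell in line #1, with 436 and 425 CPM in line #1 and 521 and 531 CPM in WT (log2 change -0.33 ± 0.03, adjusted p = 7.84e-13), and had 510.4 and 517 CPM in line #2 (0.01, adjusted p = 0.909). RACK1 had 276 and 293 CPM in line #1, 345 CPM in both libraries of line #2, and 331 and 322 CPM in WT, a log2 change of -0.24 ± 0.04 in line #1 (adjusted p = 7.69e-08) and 0.12 ± 0.04 in line #2 (adjusted p = 0.0105). TPT1 was called in line #2 alone, at 0.13 ± 0.04 (adjusted p = 0.00421), and PABPC1 in neither line, at 0.06 in line #1 and -0.03 in line #2.

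In all, line #1 had 1 gene higher and 4 lower, where 42.2% of all transcripts were called and 21.7% were lower. Line #2 had 6 genes higher, where 14.9% were called and 7.39% were higher. All 8 differed between the lines in RNA-seq, where 45.8% of all transcripts did. The line #1 RNA-seq and Ribo-seq libraries were also the deepest of their assays, and the part of depth was not tested. Of the line #2 calls, EEF2 was lost without either line #2 library or WT replicate 2 (adjusted p = 0.224 to 0.502), RACK1 likewise (0.127 to 0.169), TPT1 without either line #2 library (0.0647 and 0.094) and EEF1G without line #2 replicate 2 (0.0744). Scaling by library totals also lost EEF2 (0.269) and RACK1 (0.0774) in line #2, and the replicate block lost EEF2 there (0.09). Without line #1 replicate 2, EEF1G (-0.08, adjusted p = 0.0117) and RACK1 (-0.08, adjusted p = 0.0116) were called over both lines, and without line #1 replicate 1 TPT1 was called in line #1 (-0.09, adjusted p = 0.0494). Library totals added EEF1G over both lines (-0.07, adjusted p = 0.0308) and PABPC1 in line #1 (0.10, adjusted p = 0.00992).

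**Figure D2:**
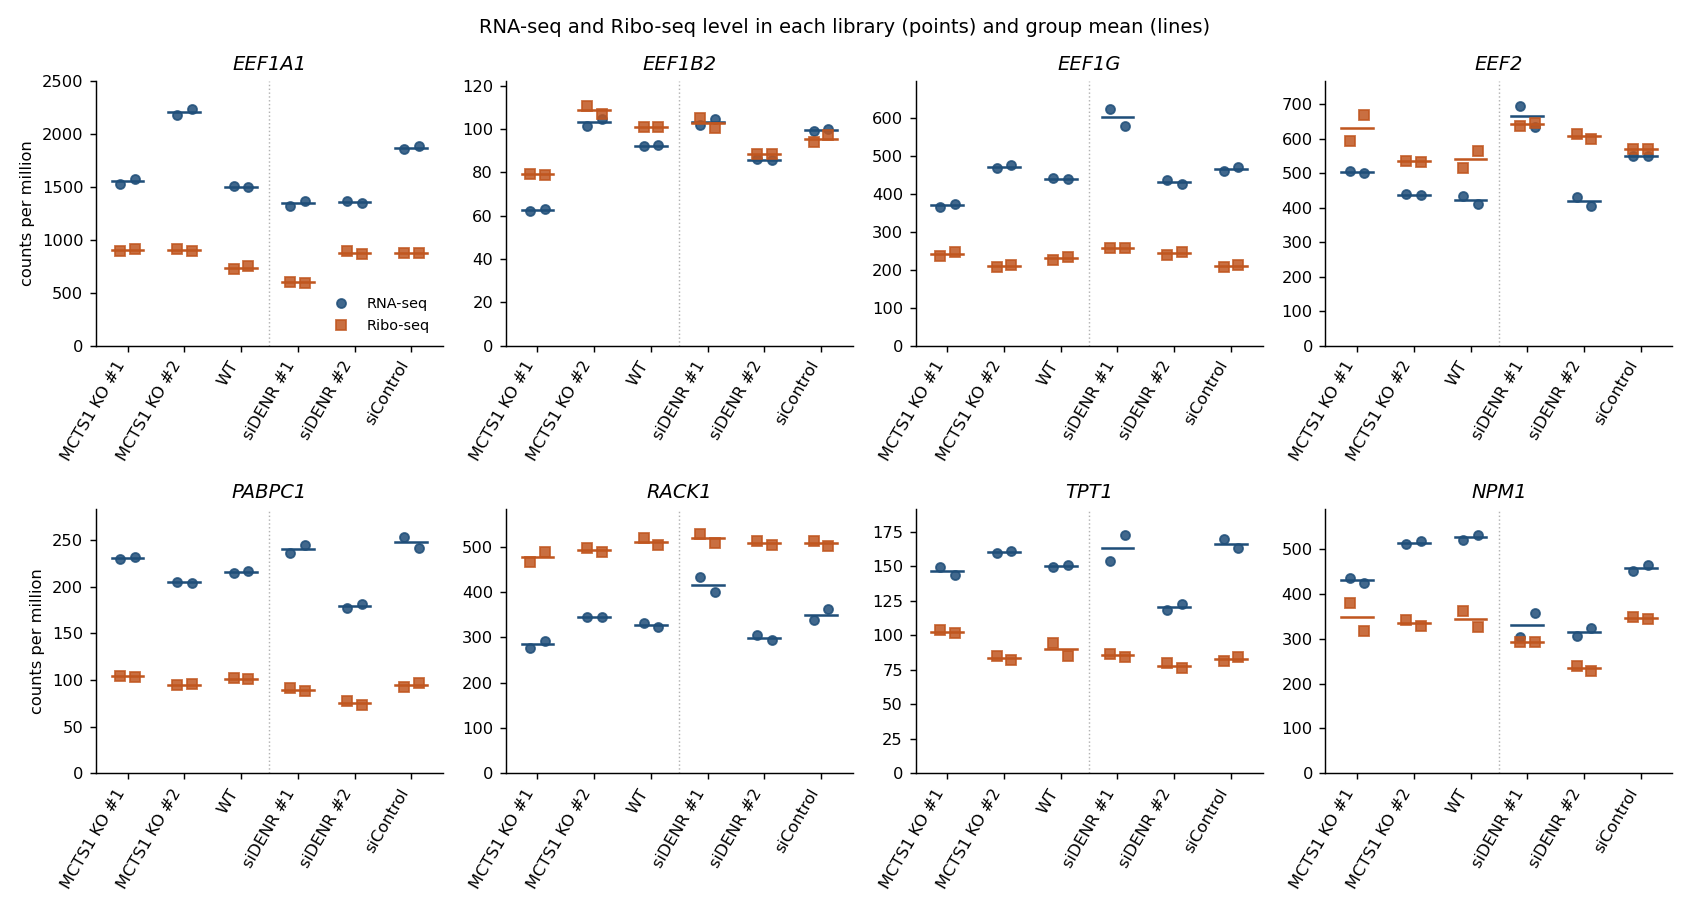
CPM of the 8 mRNAs in each RNA-seq (circles) and Ribo-seq (squares) library, on linear axes from 0, with 1 point per library, a line at each group mean, and KO and siDENR groups left of their controls. EEF1A1 RNA lies at 2176 and 2234 CPM in MCTS1 KO line #2, above all other groups, while its footprints lie between 893 and 915 CPM in both MCTS1 KO lines.

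In Ribo-seq, EEF1A1 was the only one called over both MCTS1 KO lines, 1 of 8 where 6.1% of 115412 transcripts were called. It had 899 and 911 CPM in line #1, 915 and 893 CPM in line #2, and 723 and 753 CPM in WT. The 4 KO libraries lay together above both WT libraries, at a log2 change of 0.28 ± 0.05 over both lines (adjusted p = 0.00192) and 0.28 in each line. How many of all transcripts separate like this was not counted. The difference between the lines was near 0 in footprints (SE 0.06, adjusted p = 0.998), beside -0.59 ± 0.03 (adjusted p = 2.56e-24) in RNA. Without line #2 replicate 1 the call over both lines was lost (0.28, adjusted p = 0.062). The call in line #2 alone was lost without either of its libraries (adjusted p = 0.281 without replicate 1 and 0.211 without replicate 2).

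In line #1, where 16.6% of transcripts were called, EEF2 and EEF1B2 were called besides EEF1A1. EEF1B2 had 79.4 and 78.8 footprint CPM in line #1, 111 and 107 CPM in line #2, and 101 CPM in both WT libraries. As in RNA-seq, line #1 was below WT and line #2 above it, and the fall of 0.36 in line #1 (SE 0.07, adjusted p = 0.000919) was called while the change of 0.10 ± 0.07 in line #2 was not (adjusted p = 0.538). EEF2 had 593 and 668 CPM in line #1, 535 and 533 CPM in line #2, and 515 and 564 CPM in WT, a log2 change of 0.21 ± 0.07 in line #1 (adjusted p = 0.0365). That call was lost without WT replicate 1 (0.0648), without either line #2 library (0.12 without replicate 1 and 0.118 without replicate 2) and without line #1 replicate 2 (0.45), and DESeq2 did not make it (0.104). TPT1 was called in line #1 without WT replicate 1 (0.26, adjusted p = 0.00232) and without a filter (0.23, adjusted p = 0.0259), and in line #2 without WT replicate 2 (-0.20, adjusted p = 0.0403). In line #2, where 3.61% of transcripts were called, EEF1A1 alone was called. PABPC1, NPM1 and RACK1 footprints had log2 changes between -0.11 and 0.02 in the lines, and none was called.

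Between the lines, footprints differed for EEF1B2 (-0.46 ± 0.07, adjusted p = 5.09e-05), TPT1 (0.30 ± 0.08, adjusted p = 0.0069), EEF2 (0.24 ± 0.07, adjusted p = 0.0173) and EEF1G (0.20 ± 0.07, adjusted p = 0.0371), 4 of 8 where 18.6% of transcripts differed. For EEF1G and TPT1 the sign was the opposite of that in RNA-seq. The EEF1G difference was lost without any 1 of the 4 KO libraries (adjusted p = 0.101 to 0.303), the EEF2 difference without line #1 replicate 2 or either line #2 library (0.199 to 0.309), and the TPT1 difference without line #1 replicate 1 or either line #2 library (0.0649 to 0.155). DESeq2 called neither the EEF2 (0.0515) nor the EEF1G difference (0.0709).

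Translational efficiency is the Ribo-seq change minus the RNA-seq change, tested as an interaction. Over both MCTS1 KO lines none of the 8 was called, where 0.872% of 108757 transcripts were. By edgeR 0 of 8 had an unadjusted p under 0.05, and DESeq2 called 0. The 8 values lay between -0.08 and 0.12. The lines moved apart. EEF1G had Ribo-seq to RNA-seq ratios of 0.647 and 0.658 in line #1, 0.444 and 0.445 in line #2, and 0.509 and 0.536 in WT. Each such ratio sets libraries of the same replicate number against each other, a pairing that the labels do not give. EEF1A1 had mean ratios of 0.583 in line #1, 0.410 in line #2 and 0.491 in WT. For both genes each line #1 ratio was above WT and each line #2 ratio below it. How many of all transcripts separate in this way was not counted. In line #1, where 5.4% of transcripts were called and 2.49% were higher, efficiency rose for EEF1G (0.33 ± 0.07, adjusted p = 0.00334), NPM1 (0.31 ± 0.09, adjusted p = 0.0343) and EEF1A1 (0.26 ± 0.07, adjusted p = 0.0165). There EEF1G and NPM1 fell in RNA with footprints not called, while EEF1A1 rose in footprints with RNA not called. In line #2, where 0.12% were called, efficiency fell for EEF1A1 (-0.33 ± 0.07, adjusted p = 0.0223), whose RNA rose more than its footprints. There EEF1G had -0.31 ± 0.07 (adjusted p = 0.0868) and was not called by edgeR, but was by DESeq2 (-0.30, adjusted p = 0.00118), with the replicate block (-0.31, adjusted p = 0.0486), without a filter (0.0377) and without WT Ribo-seq replicate 1 (0.00285) or 2 (0.00239).

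Of these, the EEF1A1 call in line #2 was lost without any 1 of the 4 line #2 libraries or the 2 WT RNA-seq libraries (adjusted p = 0.139 to 0.377), and with library totals as the scale (0.1). The NPM1 call in line #1 was lost in 9 of the 12 fits that left out 1 library (0.0512 to 0.241), and by DESeq2 (0.0788), and the EEF1A1 call in line #1 in 3 of the fits that left out 1 library (0.0537 to 0.0604). Without WT Ribo-seq replicate 1, EEF1B2 (0.24, adjusted p = 0.015) and TPT1 (0.34, adjusted p = 0.000235) were called in line #1, as they were without a filter (0.31, adjusted p = 0.0126 and 0.33, adjusted p = 0.0051), and EEF1B2 also by DESeq2 (0.23, adjusted p = 0.0345). Without WT Ribo-seq replicate 2, RACK1 (-0.24, adjusted p = 0.0167) and TPT1 (-0.36, adjusted p = 0.00043) were called in line #2. The difference between the lines, by contrast, was called for 6 of 8 genes, where 6.27% of transcripts differed and 2.97% were higher in line #1: EEF1G 0.63 ± 0.07 (adjusted p = 4.69e-08), EEF1A1 0.59 ± 0.07 (4.62e-08), TPT1 0.51 ± 0.08 (5.08e-05), NPM1 0.39 ± 0.09 (0.00624), EEF1B2 0.34 ± 0.08 (0.00513) and RACK1 0.31 ± 0.07 (0.00748), all higher in line #1. EEF2 and PABPC1 differed by 0.12 and 0.04 and were not called. The EEF1G, EEF1A1 and TPT1 differences were called in each fit that left out 1 library.

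**Figure D3:**
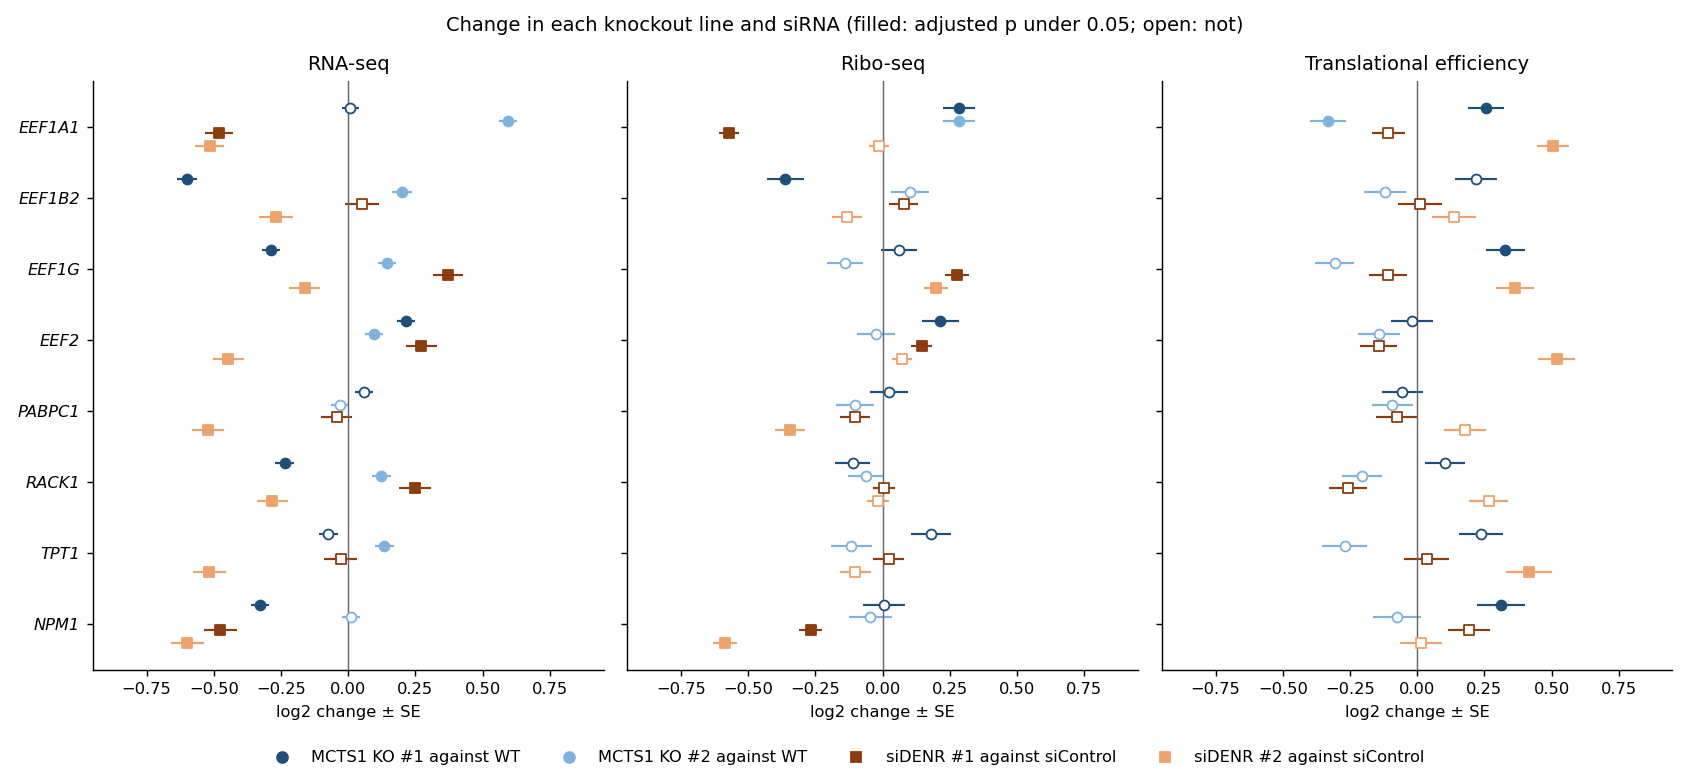
Log2 changes with SE for the 8 mRNAs in RNA-seq, Ribo-seq and translational efficiency in each knockout line and siRNA, filled where the adjusted p was under 0.05. In RNA-seq with siDENR #2 all 8 points lie below 0, from -0.60 for NPM1 to -0.16 for EEF1G.

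siDENR was set against siControl to ask the same of the dimer's other partner. In RNA-seq, over both siRNAs, NPM1, EEF1A1, PABPC1 and TPT1 fell, 4 of 8 where 23.1% of 131311 transcripts were called and 12.9% were lower, and the other 4 were not called. The median log2 change of the 8 was -0.19, beside -0.01 over all transcripts.

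NPM1 and EEF1A1 fell with each siRNA. NPM1 RNA had 303 and 357 CPM with siDENR #1, 305 and 324 CPM with siDENR #2, and 452 and 465 CPM with siControl. All 4 siDENR libraries lay below both siControl libraries, a separation not counted over all transcripts. The log2 change was -0.54 ± 0.05 over both siRNAs (adjusted p = 2.38e-12). EEF1A1 RNA had 1321 and 1366 CPM with siDENR #1, 1369.6 and 1350.5 CPM with siDENR #2, and 1857 and 1888 CPM with siControl. Its log2 change was -0.50 ± 0.04 (adjusted p = 1.58e-13), -0.48 with siDENR #1 and -0.52 with siDENR #2. The siRNAs did not differ detectably for either gene (0.12 ± 0.06, adjusted p = 0.136 for NPM1 and 0.04 ± 0.05, adjusted p = 0.674 for EEF1A1).

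The other 6 RNAs depended on the siRNA. EEF2 had 695 and 633 CPM with siDENR #1, 432 and 405 CPM with siDENR #2, and 548 and 550.2 CPM with siControl, so one siRNA lay above siControl and the other below it. Its log2 change was 0.27 ± 0.06 with siDENR #1 (adjusted p = 0.000192) and -0.45 ± 0.06 with siDENR #2 (adjusted p = 1.29e-08). EEF1G had 626 and 581 CPM with siDENR #1, 438 and 427 CPM with siDENR #2, and 459.6 and 473 CPM with siControl. It rose with siDENR #1 (0.37 ± 0.06, adjusted p = 6.58e-07) and fell with siDENR #2 (-0.16 ± 0.06, adjusted p = 0.0341). RACK1 showed the same split, with 433 and 400.4 CPM with siDENR #1, 304 and 294 CPM with siDENR #2, and 337 and 363 CPM with siControl, at 0.25 ± 0.06 (adjusted p = 0.00095) and -0.28 ± 0.06 (adjusted p = 0.000245).

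PABPC1, TPT1 and EEF1B2 fell with siDENR #2, were not called with siDENR #1, and differed between the siRNAs. PABPC1 had 236 and 245 CPM with siDENR #1, 177 and 182 CPM with siDENR #2, and 254 and 242 CPM with siControl. Its log2 change was -0.52 ± 0.06 with siDENR #2 (adjusted p = 2.87e-10) and -0.04 ± 0.06 with siDENR #1 (adjusted p = 0.637). TPT1 had 154 and 173 CPM with siDENR #1, 119 and 123 CPM with siDENR #2, and 169.8 and 163 CPM with siControl, at -0.52 ± 0.06 with siDENR #2 (adjusted p = 2.1e-09). EEF1B2 had 102 and 104 CPM with siDENR #1, 86.2 and 85.5 CPM with siDENR #2, and 99.0 and 100 CPM with siControl, at -0.27 ± 0.06 with siDENR #2 (adjusted p = 0.00103).

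With siDENR #2 all 8 RNAs were lower, where 19.2% of transcripts were called and 10.3% were lower. With siDENR #1, where 26% were called, 3 were higher and 2 lower. The siRNAs differed for 6 of 8 genes, by 0.32 for EEF1B2 to 0.72 for EEF2, where 24.8% of transcripts differed. With siDENR #2, the EEF1G call was lost without either siDENR #2 or either siControl library (adjusted p = 0.0763 to 0.328), under library totals (0.132) and by DESeq2 (0.0704). There the EEF1B2 call was lost without siControl replicate 2 (0.0516) or siDENR #2 replicate 2 (0.0533), and the RACK1 call without siControl replicate 2 (0.065). The RACK1 rise with siDENR #1 was lost without siControl replicate 1 (0.099). Over both siRNAs, EEF2 was called without siDENR #1 replicate 1 (-0.12, adjusted p = 0.0372), and EEF1G without siDENR #1 replicate 2 (0.14, adjusted p = 0.0139) and under library totals (0.13, adjusted p = 0.0234). The NPM1 difference between siRNAs was called without siDENR #1 replicate 1 (0.23, adjusted p = 0.000884).

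Footprints with siDENR fell for NPM1, EEF1A1 and PABPC1 and rose for EEF1G and EEF2 over both siRNAs, 5 of 8 where 10.4% of 108890 transcripts were called, 6.05% lower and 4.37% higher. NPM1 footprints had 293 and 292 CPM with siDENR #1, 239 and 228 CPM with siDENR #2, and 349 and 343 CPM with siControl. The log2 change was -0.27 ± 0.04 with siDENR #1 (adjusted p = 6.62e-06) and -0.59 ± 0.04 with siDENR #2 (adjusted p = 1.01e-15). PABPC1 had 91.0 and 88.5 CPM with siDENR #1, 77.6 and 73.4 CPM with siDENR #2, and 92.9 and 96.6 CPM with siControl. It fell with siDENR #2 (-0.34 ± 0.06, adjusted p = 1.1e-05), while -0.10 ± 0.06 with siDENR #1 was not called (adjusted p = 0.277). Both mRNAs had their lowest footprint levels with siDENR #2.

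EEF1A1 footprints split by siRNA although its RNA did not. They had 603 and 595 CPM with siDENR #1, 893 and 865 CPM with siDENR #2, and 875 CPM in both siControl libraries. The siDENR #1 libraries lay far below and the siDENR #2 libraries on either side of siControl. The log2 change was -0.57 ± 0.04 with siDENR #1 (adjusted p = 4.09e-18) and -0.01 ± 0.04 with siDENR #2 (adjusted p = 0.907), a difference of -0.56 ± 0.04 (adjusted p = 1.23e-17).

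EEF1G footprints rose with each siRNA, to 257 and 258 CPM with siDENR #1 and 239 and 248 CPM with siDENR #2, against 207 and 212 CPM with siControl. The log2 changes were 0.28 ± 0.04 (adjusted p = 7.01e-06) with siDENR #1 and 0.20 ± 0.05 (adjusted p = 0.00148) with siDENR #2. With siDENR #2 this mRNA was thus lower in RNA and higher in footprints. EEF2 had 638 and 645 CPM with siDENR #1, 613 and 599.5 CPM with siDENR #2, and 569 CPM in both siControl libraries, a log2 change of 0.11 ± 0.03 over both siRNAs (adjusted p = 0.025). RACK1 (528 and 509 CPM with siDENR #1, 512 and 504 CPM with siDENR #2, 513 and 502 CPM with siControl), TPT1 and EEF1B2 were not called with either siRNA. With siDENR #1, where 10.6% of transcripts were called, 4 of 8 genes were called, and with siDENR #2, where 9.21% were, 3 of 8. Footprints differed between the siRNAs for 4 of 8, where 11.1% of transcripts did: besides EEF1A1, NPM1 by 0.32, PABPC1 by 0.24 and EEF1B2 by 0.21.

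Without a filter the EEF2 footprint call was lost over both siRNAs (adjusted p = 0.164) and with siDENR #1 (0.0685). Over both siRNAs it was also lost without siControl replicate 1 (adjusted p = 0.166) or 2 (0.181), siDENR #1 replicate 1 (0.0791) or 2 (0.0604), or siDENR #2 replicate 1 (0.0864), and its call with siDENR #1 without either siControl or either siDENR #1 library (0.0526 to 0.0691). PABPC1 over both siRNAs was lost without siControl replicate 2 (0.0585). The PABPC1 difference between siRNAs was lost without siDENR #1 replicate 1 (0.0542) or siDENR #2 replicate 2 (0.0575), and the EEF1B2 difference without siDENR #1 replicate 1 (0.145).

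Translational efficiency was called for none of the 8 over both siRNAs, where 0.369% of 102515 transcripts were called. By edgeR 4 of 8 had an unadjusted p under 0.05, and DESeq2 called 0. All 8 values were positive, from 0.00 for RACK1 to 0.23 ± 0.07 for TPT1 (adjusted p = 0.223), beside a median over all transcripts of 0.01. Without siDENR #1 RNA-seq replicate 1, EEF2 was called (0.23, adjusted p = 0.0428), and without siDENR #1 RNA-seq replicate 2, EEF1A1 (0.21, adjusted p = 0.0341) and TPT1 (0.27, adjusted p = 0.0359) were. Under library totals EEF1A1 was called (0.20, adjusted p = 0.0357).

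The siRNAs differed here as well. EEF2 had Ribo-seq to RNA-seq ratios of 0.917 and 1.02 with siDENR #1, 1.42 and 1.48 with siDENR #2, and 1.03 and 1.04 with siControl. EEF1A1 had 0.435 and 0.457 with siDENR #1, 0.641 and 0.652 with siDENR #2, and 0.463 and 0.471 with siControl. In both mRNAs the siDENR #2 ratios, formed by replicate number as above, stood alone above the others, a separation not counted over all transcripts. With siDENR #2, where 0.591% of transcripts were called and 0.485% were higher, efficiency rose for 4 of 8: EEF2 by 0.52 ± 0.07 (adjusted p = 3.13e-06), EEF1A1 by 0.51 ± 0.06 (3.95e-07), TPT1 by 0.42 ± 0.08 (0.00478) and EEF1G by 0.36 ± 0.07 (0.00294). The RNA of these 4 fell with siDENR #2, and of their footprints only those of EEF1G were called, as higher. NPM1, whose RNA and footprints fell by like amounts, had 0.01 ± 0.08 (adjusted p = 0.984). With siDENR #1 none was called, where 0.217% of transcripts were. By edgeR 3 of 8 had an unadjusted p under 0.05 there, and DESeq2 called 0. Without siDENR #1 RNA-seq replicate 2, NPM1 (0.31, adjusted p = 0.02) and RACK1 (-0.31, adjusted p = 0.0192) were called with siDENR #1. RACK1 was called with siDENR #2 without siControl RNA-seq replicate 1 (0.32, adjusted p = 0.0403) or siDENR #1 RNA-seq replicate 1 (0.27, adjusted p = 0.0236) or 2 (0.27, adjusted p = 0.0309).

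The difference between the siRNAs was called for 5 of 8, where 1.02% of transcripts differed and 0.913% were lower with siDENR #1: EEF2 -0.66 ± 0.07 (adjusted p = 5.18e-09), EEF1A1 -0.61 ± 0.06 (1.84e-09), RACK1 -0.52 ± 0.07 (3.9e-06), EEF1G -0.47 ± 0.07 (2.26e-05) and TPT1 -0.38 ± 0.09 (0.00775), all lower with siDENR #1. The EEF2, EEF1A1, RACK1 and EEF1G differences were called in each fit that left out 1 library. TPT1 lost its difference in 4 of 12 such fits (0.0515 to 0.114) and its call with siDENR #2 in 3 (0.0695 to 0.099), and EEF1G lost its call with siDENR #2 in 2 (0.0529 and 0.0809). Library totals also lost the TPT1 difference (0.0595), and NPM1 differed without siDENR #1 RNA-seq replicate 2 (0.30, adjusted p = 0.0212).

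TCP-seq, which sequences the mRNA held by scanning small subunits and full ribosomes, was compared between eIF2D KO and WT. The question was how the counts of each mRNA change without eIF2D. Counts per transcript do not show where on an mRNA the complexes sit. Over both lines PABPC1 and TPT1 fell, 2 of 8 where 1.61% of 50991 transcripts were called and 1.01% were lower, and all 8 values were below 0, with a median of -0.19, while that over all transcripts was near 0. PABPC1 had 147 and 148 CPM in line #1, 168 and 177 CPM in line #2, and 196 and 201 CPM in WT libraries 1 and 2. All 4 KO libraries lay below both WT libraries, at a log2 change of -0.38 ± 0.10 (adjusted p = 0.0213). How many of all transcripts separate like this was not counted. TPT1 had 105 and 89.0 CPM in line #1, 63.3 and 58.6 CPM in line #2, and 102 and 86.8 CPM in WT, so its fall over both lines (-0.38 ± 0.11, adjusted p = 0.0471) came from line #2. DESeq2 called neither (adjusted p = 0.0645 for PABPC1 and 0.17 for TPT1). PABPC1 was lost without a filter (0.0523), without WT library 1 (0.108), WT library 2 (0.402) or line #2 replicate 1 (0.123). TPT1 was lost in 14 of 19 alternatives. Among them were the fits without WT library 1 (log2 change -0.28), WT library 2 (-0.44), line #1 replicate 2 (-0.30), and line #2 replicate 1 or 2 (-0.37 each). It was also lost without each MCTS1 KO library (-0.37 to -0.38). A further loss came with the replicate number as a block (adjusted p = 0.0802), fitted to the eIF2D KO lines and WT libraries 1 and 2 alone. That fit also left out the other run, so the loss cannot be credited to the block.

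The 2 eIF2D KO lines differed for 4 of the 8, where 8.23% of transcripts differed. EEF1B2 had 57.1 and 58.1 CPM in line #1, 108 and 93.9 CPM in line #2, and 92.7 and 79.0 CPM in WT. RACK1 had 203 and 189 CPM in line #1, 281 and 296 CPM in line #2, and 244 and 250.2 CPM in WT. NPM1 had 304 and 291 CPM in line #1, 387 and 458 CPM in line #2, and 341 and 401 CPM in WT. In these 3 mRNAs line #1 lay below line #2, and TPT1 was the other way round. In line #1, where 1.84% of transcripts were called and 1.36% were lower, EEF1B2 (-0.68 ± 0.13, adjusted p = 0.000602), PABPC1 (-0.52 ± 0.12, adjusted p = 0.00342), RACK1 (-0.43 ± 0.11, adjusted p = 0.0214) and NPM1 (-0.42 ± 0.12, adjusted p = 0.035) fell. In line #2, where 3.29% were called, TPT1 alone fell (-0.68 ± 0.13, adjusted p = 0.000166). The line difference was -0.88 ± 0.13 for EEF1B2 (adjusted p = 5.38e-08), -0.62 ± 0.11 for RACK1 (1.93e-05), -0.57 ± 0.12 for NPM1 (0.000205) and 0.60 ± 0.13 for TPT1 (0.000387).

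The values of EEF1B2 and RACK1 in both eIF2D KO lines depended on which WT libraries were used. EEF1B2 had 92.7 and 79.0 CPM in WT libraries 1 and 2 and 65.2 and 64.7 CPM in WT libraries 3 and 4, and RACK1 had 244 and 250.2 CPM in the first pair and 189.9 and 181 CPM in the second. Against WT libraries 3 and 4 the line #1 change was -0.28 for EEF1B2 (adjusted p = 0.287) and -0.03 for RACK1 (adjusted p = 0.935), and neither was called. NPM1 lost its call there too (-0.36, adjusted p = 0.0589), while PABPC1 over both lines was -0.53 (adjusted p = 2.54e-05). In line #2, EEF1B2 had 0.60 (adjusted p = 0.000216) against WT libraries 3 and 4 and 0.20 (adjusted p = 0.454) against 1 and 2. RACK1 there had 0.59 (adjusted p = 2.83e-05) against the one pair and 0.19 (adjusted p = 0.414) against the other, and PABPC1 -0.38 (adjusted p = 0.011) and -0.24 (adjusted p = 0.284). Over both lines EEF1B2 and RACK1 stood above 0 against WT libraries 3 and 4, at 0.16 and 0.28, as did EEF1G, and none of these was called. With all 4 WT libraries the line #1 calls of EEF1B2 (-0.50, adjusted p = 0.0862), RACK1 (-0.25, adjusted p = 0.456) and NPM1 (-0.39, adjusted p = 0.173) were lost. Library totals also lost RACK1 (0.0598) and NPM1 (0.0768) in line #1, and DESeq2 lost NPM1 (0.0978). Leaving out 1 library, EEF1B2 in line #1 was lost without WT library 1 (0.063), PABPC1 without WT library 2 (0.112), RACK1 without WT library 1 or 2 or line #1 replicate 2 (0.0573 to 0.279) and NPM1 without WT library 2, either line #1 library or either library of MCTS1 KO line #1 (0.0518 to 0.55). The TPT1 call in line #2 was lost without WT library 1 (0.0629), and its line difference without line #1 replicate 1 (0.0643). In the fit with the replicate block, which also left out the other run, RACK1 (0.0594) and NPM1 (0.0959) in line #1 were not called.

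**Figure D4:**
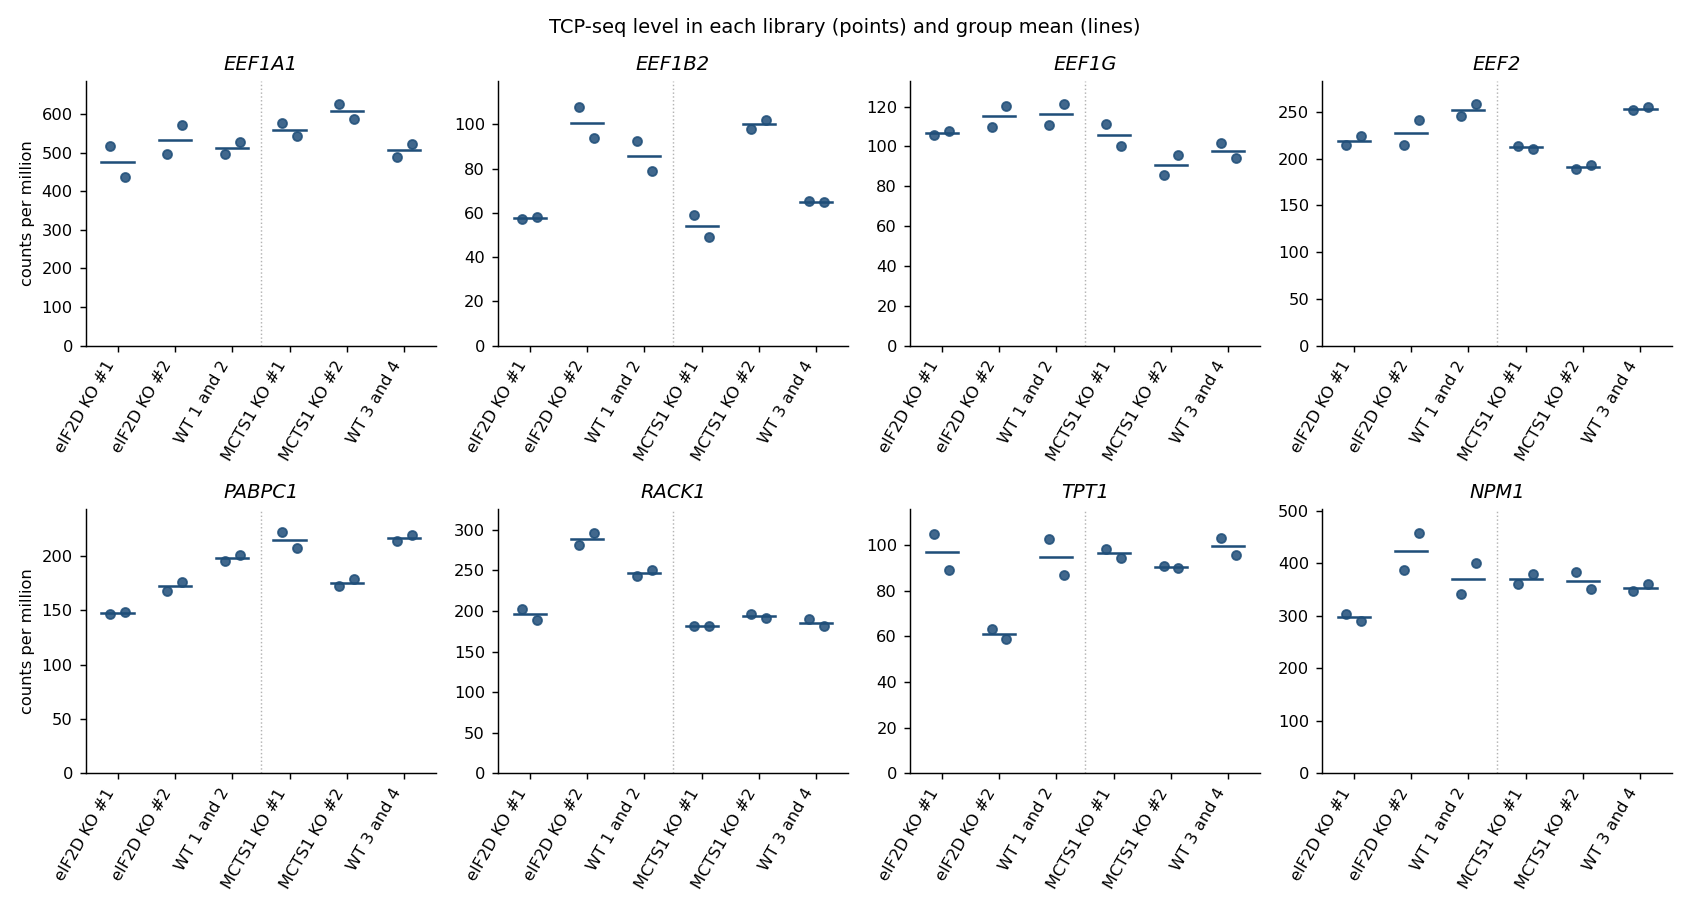
TCP-seq CPM of the 8 mRNAs in each library on linear axes from 0, with lines at group means, each KO left of the WT libraries of its own run and a dotted line between the runs. PABPC1 lies at 147 to 177 CPM in eIF2D KO and 196 to 220.0 CPM in WT, and RACK1 differs between WT libraries 1 and 2 (244 and 250.2 CPM) and 3 and 4 (189.9 and 181 CPM).

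In TCP-seq of MCTS1 KO, EEF2 fell over both lines, 1 of 8 where 13.8% of transcripts were called. It had 214 and 211 CPM in line #1, 188 and 193 CPM in line #2, and 252 and 255 CPM in WT libraries 3 and 4. The 4 KO libraries lay below all 4 WT libraries, the lowest of which had 246 CPM, a separation not counted over all transcripts. The log2 change was -0.37 ± 0.10 over both lines (adjusted p = 0.00587), -0.49 ± 0.12 in line #2 (adjusted p = 0.000756) and -0.25 ± 0.12 in line #1 (adjusted p = 0.237). Without WT library 4 it was -0.31 over both lines and was not called (adjusted p = 0.134). EEF2 RNA and line #1 footprints, given above, were on the other side of WT.

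EEF1B2 had 58.9 and 49.1 CPM in line #1, 98.0 and 102 CPM in line #2, and 65.2 and 64.7 CPM in WT libraries 3 and 4. It rose in line #2 (0.55 ± 0.13, adjusted p = 0.000756), had -0.25 ± 0.15 in line #1 (adjusted p = 0.4), and differed between lines by -0.80 ± 0.14 (adjusted p = 1.67e-05). As in RNA-seq and Ribo-seq, line #1 was below and line #2 above WT. Against WT libraries 1 and 2 the line #2 change was 0.15 (adjusted p = 0.469), and against all 4 it was 0.33 (adjusted p = 0.0896), neither of which was called. PABPC1 fell in line #2, with 222 and 208 CPM in line #1, 173 and 179 CPM in line #2, and 214 and 220.0 CPM in WT (-0.38 ± 0.11 in line #2, adjusted p = 0.00997). That call was lost without WT library 4 (0.148) or either line #2 library (0.107 and 0.0517), against WT libraries 1 and 2 (-0.24, adjusted p = 0.167) or all 4 (-0.31, adjusted p = 0.0935), and without a filter (0.0922), and its line difference of 0.37 ± 0.12 (adjusted p = 0.0456) in 8 fits that left out 1 library (0.0513 to 0.388), with all 4 WT libraries (0.229), under library totals (0.0856), without a filter (0.318) and by DESeq2 (0.121).

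Line #2 had 3 of 8 called, where 19.1% of transcripts were, and the lines differed for 2 of 8, where 3.44% did. In line #1, where 4.99% were called, none of the 8 was, by edgeR with 1 at an unadjusted p under 0.05, or by DESeq2. Against WT libraries 1 and 2, EEF1B2 (-0.65, adjusted p = 0.00257) and RACK1 (-0.42, adjusted p = 0.0343) were called in line #1, EEF1G (-0.41, adjusted p = 0.0131) and RACK1 (-0.41, adjusted p = 0.0069) in line #2, and RACK1 over both lines (-0.42, adjusted p = 0.00226). Against WT libraries 3 and 4, RACK1 had -0.03 in line #1 and -0.01 in line #2. Library totals added EEF1A1 in line #2 (0.26, adjusted p = 0.0317). No difference between the eIF2D and MCTS1 knockouts was called for any of the 8 by edgeR or DESeq2, with 1 unadjusted p under 0.05 in edgeR, where 3.54% of transcripts differed. These differences lay between -0.39 ± 0.17 for EEF1B2 and 0.13 ± 0.14 for EEF2.

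In Sel-TCP-seq the 3 selections were set against each other, since no untagged or input library of the same selection is given. EEF2 was higher with eIF2D-V5 than with the mean of MCTS1-V5 and DENR-V5, 1 of 8 where 22.1% of 12135 transcripts were called. It had 231 and 410.0 CPM with eIF2D-V5, 126 and 262 CPM with MCTS1-V5, and 149 and 126 CPM with DENR-V5. The replicates of the first pair of selections each spread widely, and 1 MCTS1-V5 library lay above 1 eIF2D-V5 library. The log2 difference was 0.81 ± 0.25 (adjusted p = 0.0327) against both and 1.01 ± 0.31 against DENR-V5 alone (adjusted p = 0.0351), where 19.1% of transcripts were called. With the replicate number as a block it was 0.78 (adjusted p = 0.000533). DESeq2 did not call it (0.82, adjusted p = 0.159), nor did the fits without eIF2D-V5 replicate 2 (0.41, adjusted p = 0.475), DENR-V5 replicate 1 (0.84, adjusted p = 0.0776) or DENR-V5 replicate 2 (0.74, adjusted p = 0.115). The same libraries decided the call against DENR-V5 (adjusted p = 0.171 to 0.297 without 1 of them), which DESeq2 did not make either (0.138).

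Of the other 7, EEF1G had 113 and 149 CPM with eIF2D-V5, 67.4 and 135 CPM with MCTS1-V5, and 66.7 and 89.1 CPM with DENR-V5, a difference of 0.41 ± 0.24 that was not called (adjusted p = 0.227). NPM1 (-0.15 ± 0.25), EEF1A1 (-0.06 ± 0.27), RACK1 (-0.07 ± 0.23) and TPT1 (0.02 ± 0.25) lay near 0, with errors that leave differences of the size seen for EEF1G undetected. Between eIF2D-V5 and MCTS1-V5, 7.31% of transcripts were called and none of the 8, by edgeR with 0 at an unadjusted p under 0.05, or by DESeq2. EEF2 had 0.62 there (adjusted p = 0.221) and was called at 0.62 with the replicate number as a block (adjusted p = 0.0457) and at 1.05 without MCTS1-V5 replicate 2 (adjusted p = 0.0316). Between MCTS1-V5 and DENR-V5, 0% of transcripts and none of the 8 were called, likewise with 0 at an unadjusted p under 0.05 and 0 by DESeq2.

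**Figure D5:**
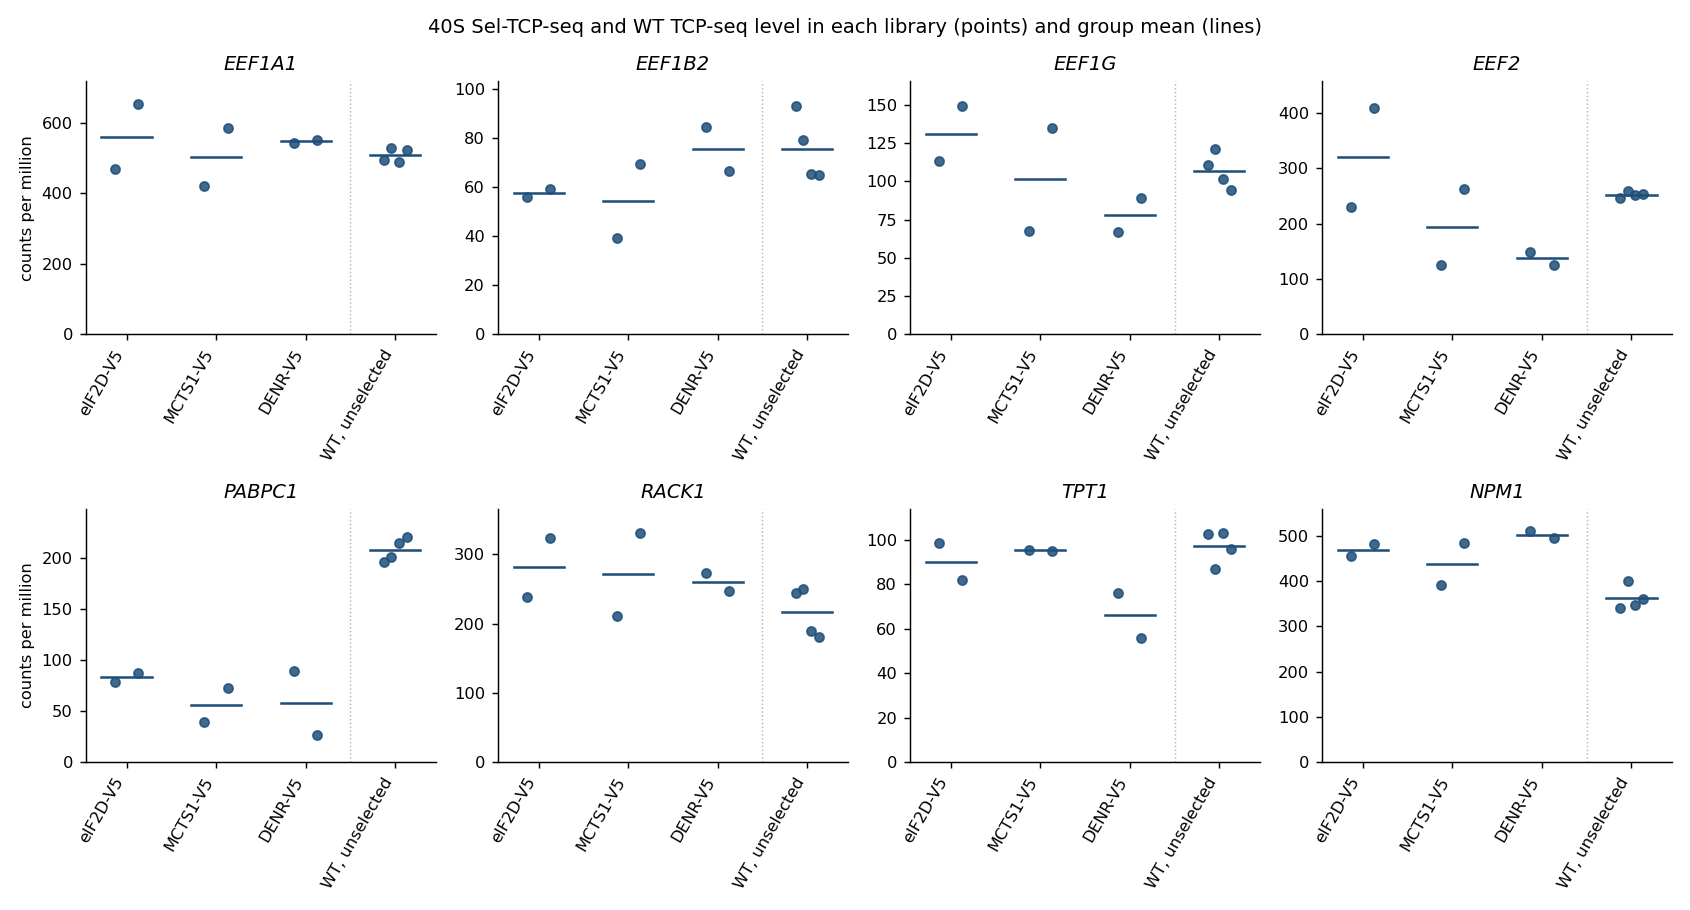
CPM of the 8 mRNAs in each Sel-TCP-seq library and in the 4 WT TCP-seq libraries on linear axes from 0, with lines at group means and selections left of WT TCP-seq. PABPC1 lies at 26.9 to 88.9 CPM in Sel-TCP-seq and at 196 to 220.0 CPM in WT TCP-seq, and EEF2 at 231 and 410.0 CPM with eIF2D-V5.

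Set against unselected WT TCP-seq, PABPC1 fell in Sel-TCP-seq, and its difference was the largest of the 8. It had 78.7 and 87.1 CPM with eIF2D-V5, 39.3 and 72.3 CPM with MCTS1-V5, 88.9 and 26.9 CPM with DENR-V5, and 196, 201, 214 and 220.0 CPM in WT TCP-seq. Every selected library had less than any WT library, though the share of all transcripts that do so was not counted. The lowest, DENR-V5 replicate 2, held 13 PABPC1 counts, which gives 26.9 CPM with a 95% Clopper-Pearson interval of 14.3 to 46.1 CPM, and the highest, DENR-V5 replicate 1, held 56 counts with an interval of 67.2 to 115 CPM. These intervals cover counting error only. The log2 difference was -1.53 ± 0.18 over the 3 selections (adjusted p = 2.49e-09), -1.33 ± 0.24 for eIF2D-V5 (1.93e-05), -1.68 ± 0.29 for MCTS1-V5 (3.22e-05) and -1.57 ± 0.28 for DENR-V5 (7.53e-05). Without DENR-V5 replicate 2 the DENR-V5 value was -0.99 and was not called (adjusted p = 0.148), and without DENR-V5 replicate 1 it was -2.83. Over the 3 selections PABPC1 was called in each alternative, and no selection differed from another (0.36 ± 0.35 for eIF2D-V5 against the other 2, adjusted p = 0.465). The selection, the tag, the fraction and the run of libraries cannot be told apart here.

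NPM1 and RACK1 were higher in Sel-TCP-seq, so that 3 of 8 were called, where 30% of 35013 transcripts were called, 10.5% higher, and the median over all was -0.11. NPM1 had 455 and 482 CPM with eIF2D-V5, 390.4 and 484 CPM with MCTS1-V5, 509.7 and 495 CPM with DENR-V5, and 341, 401, 346 and 361 CPM in WT TCP-seq. The 2 sets overlapped in 1 library each, and the log2 difference was 0.49 ± 0.16 (adjusted p = 0.015). RACK1 had 238 and 324 CPM with eIF2D-V5, 211 and 331 CPM with MCTS1-V5, 273 and 247 CPM with DENR-V5, and 244, 250.2, 189.9 and 181 CPM in WT, with 3 selected libraries inside the WT range (0.45 ± 0.16, adjusted p = 0.0257). Both calls were lost with library totals as the scale (0.0829 for NPM1 and 0.133 for RACK1) and with no count filter (0.342 for NPM1 and 0.445 for RACK1). Leaving out 1 library ended the NPM1 call for WT library 1, MCTS1-V5 replicate 2 and both DENR-V5 libraries (0.0775 to 0.138) and the RACK1 call for WT libraries 3 and 4, eIF2D-V5 replicate 2, MCTS1-V5 replicate 2 and both DENR-V5 libraries (0.0605 to 0.257).

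By selection, 1 of 8 was called with eIF2D-V5, where 36% of transcripts were, 1 of 8 with MCTS1-V5, where 14.8% were, and 2 of 8 with DENR-V5, where 10.8% were. The second call with DENR-V5 was NPM1 (0.68 ± 0.21, adjusted p = 0.0281), which was lost without either DENR-V5 library (0.401 and 0.264) or WT library 1 (0.0857), under library totals (0.157) and without a filter (0.481). EEF2 was lower with DENR-V5 than in WT TCP-seq by a log2 difference of -0.66 ± 0.24 that was not called (adjusted p = 0.0618). It was called with DESeq2 size factors (-0.67, adjusted p = 0.0422), under library totals (-0.87, adjusted p = 0.0159), and without MCTS1-V5 replicate 1 (-0.70, adjusted p = 0.0263) or 2 (-0.68, adjusted p = 0.0362) or eIF2D-V5 replicate 2 (-0.68, adjusted p = 0.024). EEF1A1 and EEF1G, the mRNAs with the fewest TCP-seq counts for their RNA, had 0.20 ± 0.17 (adjusted p = 0.394) and 0.05 ± 0.17 (adjusted p = 0.849) and were not called.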

How the data were processed

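Libraries of RNA-seq, of Ribo-seq, of TCP-seq and of 40S Sel-TCP-seq were counted by the authors and deposited as whole-number counts for 226882 transcripts in 42 libraries. The labels list 52 samples, and the other 10 are not analysed here. The tools were STAR, cutadapt, Subread and featureCounts with hg38 and GRCh38.p13, per the submitters' processing notes. Handling of multi-mapping, strand and duplicates: not given in the sources used here. Totals per library are given with the results.

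From these counts, edgeR 4.0.16 in R 4.3.3 fitted each comparison over the whole table (TMM factors, filterByExpr with a minimum count of 10, robust quasi-likelihood test, Benjamini-Hochberg over all transcripts tested, threshold 0.05). The 12 TCP-seq libraries shared 1 model. Standard errors were computed as the absolute log2 change divided by the root of F. The mean of both lines or siRNAs was the main contrast, and its p leaves out the spread between lines. Where all libraries of an mRNA are said to lie above or below another group, the share of all transcripts that do so was not counted. Alternatives were DESeq2 1.42.0, other scalings, no filter, a replicate block and each library left out.

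All members are named. Members and lists were chosen with earlier results of these data known. The gene lists, cell type markers and most similar genes planned beside them were not used, because nothing paired other transcripts with names, and without lengths no levels were compared between genes.

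In Sel-TCP-seq, libraries with the same replicate number deviated together (r = 0.114 to 0.406 over 3 pairs of groups), so the numbers may pair them. In the other fits r was between -0.072 and 0.082, and the labels give the numbers no meaning.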

Additional observations from a re-analysis of the deposited data

Results flagged for a closer look

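The results below stood out because 2 knockout lines of the same gene, set against the same controls, differed by the test of the difference itself (edgeR, adjusted p under 0.05). Values are log2 differences, line #1 minus line #2. The share of all transcripts that differed in the same way is given with the results.

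In RNA-seq of MCTS1 KO all 8 mRNAs differed: EEF1B2 by -0.80, EEF1A1 by -0.59, EEF1G by -0.43, RACK1 by -0.36, NPM1 by -0.34, TPT1 by -0.21, EEF2 by 0.12 and PABPC1 by 0.09. The last 2 were the least stable. The EEF2 difference was lost without line #2 replicate 2 (adjusted p = 0.0725). The PABPC1 difference was lost by DESeq2 (0.0588), with a replicate block (0.0509) and without line #1 replicate 2 or either line #2 library (0.0971 to 0.181).

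In Ribo-seq of MCTS1 KO the difference was -0.46 for EEF1B2, 0.30 for TPT1, 0.24 for EEF2 and 0.20 for EEF1G. In translational efficiency it was 0.63 for EEF1G, 0.59 for EEF1A1, 0.51 for TPT1, 0.39 for NPM1, 0.34 for EEF1B2 and 0.31 for RACK1. The NPM1 difference was lost there without Ribo-seq replicate 1 of line #1 (adjusted p = 0.0761) or replicate 2 of line #2 (0.0631). The EEF1B2 difference was lost without either library of line #2 replicate 2 (0.0593 and 0.0564). The RACK1 difference was lost without these (0.0501 and 0.0684) or RNA-seq replicate 1 of line #1 (0.0669).

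In TCP-seq the eIF2D KO lines differed by -0.88 for EEF1B2, -0.62 for RACK1, -0.57 for NPM1 and 0.60 for TPT1, and the MCTS1 KO lines by -0.80 for EEF1B2 and 0.37 for PABPC1. EEF1B2 was the only mRNA that differed between lines of both knockouts in TCP-seq and between MCTS1 KO lines in RNA-seq, Ribo-seq and translational efficiency. Its sign was negative in all but translational efficiency, which is formed from the same RNA-seq and Ribo-seq libraries. The labels do not relate the line numbers of one knockout to those of the other, so a sign shared between knockouts has no meaning.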

How the results depend on the processing

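Counts of the 8 genes called moved as follows, and in no other alternative that kept all libraries. The TCP-seq replicate block is listed with these, although it left out the libraries of the other run. RNA-seq of MCTS1 KO and of siDENR (4 called each) had 5 each under library totals, and Ribo-seq of siDENR (5 called) had 4 without a filter. For TCP-seq of eIF2D KO (2 called), DESeq2 size factors, library totals and the replicate block each left 1, and DESeq2 and no filter left 0. For TCP-seq of MCTS1 KO (1 called), WT libraries of the other run gave 2. Translational efficiency with siDENR (0 called) had 1 under library totals. The eIF2D-V5 comparison (1 called) had 0 by DESeq2. Sel-TCP-seq against TCP-seq (3 called) had 1 under library totals and 1 without a filter.

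Leaving out 1 library gave 4 to 6 calls in RNA-seq of MCTS1 KO, 4 to 5 in RNA-seq of siDENR, 0 to 1 in Ribo-seq of MCTS1 KO, 3 to 5 in Ribo-seq of siDENR, 0 to 0 and 0 to 2 in translational efficiency of MCTS1 KO and siDENR, 0 to 2 and 0 to 1 in TCP-seq of eIF2D KO and MCTS1 KO, 0 to 1 in the eIF2D-V5 comparison and 1 to 3 in Sel-TCP-seq against TCP-seq. The lone library left in a group is assumed to vary like the others.

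Over all contrasts, 1349 alternatives of called values kept their call and 192 lost it, and 50 of uncalled values were called. No called value changed sign, and 177 uncalled values did. Under library totals the median of all transcripts moved from -0.11 to -0.23 in Sel-TCP-seq against TCP-seq and from 0.03 to 0.18 in the eIF2D-V5 comparison. The replicate block added EEF1G in translational efficiency of MCTS1 KO line #2 and EEF2 between eIF2D-V5 and MCTS1-V5, and kept the eIF2D-V5 comparison at 1 call. It took away EEF2 in RNA-seq of MCTS1 KO line #2 (adjusted p = 0.09) and the PABPC1 difference between MCTS1 KO lines in RNA-seq. The TCP-seq calls named with the results were lost in a block fit that also left out the other run. No paired analysis was possible because the numbers are not shared between MCTS1 KO and WT libraries 3 and 4, or between Sel-TCP-seq and WT TCP-seq. Counting error limits low counts, such as PABPC1 in Sel-TCP-seq, but replicates can spread further: EEF2 with eIF2D-V5 had 231 CPM (95% interval 202 to 263) and 410.0 CPM (386 to 435).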
